A study of Mus musculus with 2 samples.

Results

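Insulin-like growth factor 1 (Igf1), its receptor (Igf1r) and the binding proteins Igfbp2 to Igfbp7 were described in Flk1+Tie2+ cells. These were sorted from differentiating mouse embryonic stem cells, with and without a pulse of the mesoderm factor Mesp1. The members are a preset group of 8 genes, read through every probe set to which the array's platform annotation gives their symbol. Other measured genes of the IGF system, among them Igf2r and Igfbp1, are outside this group and are described below. All 8 were found, with 24 probe sets among 34945 that carry a single gene symbol, so 8 of 18193 named genes. No probe set with several gene symbols named a member.

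Both samples came from A2lox.Mesp1 cells, a stem cell line of 129/Ola background with a doxycycline (dox) inducible Mesp1 transgene, so the control carries the transgene as well. Embryoid bodies, aggregates of differentiating stem cells, were grown for 5 days from 15000 cells/mL in 10% serum, either without dox or with 250 ng/mL of dox from day 2, which the series' design text ends at day 4. Cells with both Flk1 (the product of Kdr) and Tie2 (the product of Tek) at the surface were then sorted, and RNA from each sort was hybridised to 1 Affymetrix 3' array. A culture that received dox without carrying the transgene was not analysed here, so an effect of dox and an effect of Mesp1 cannot be told apart, and the 2 arrays come from 1 line.

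The IGF system controls growth and survival. IGF1 and IGF2 act through the receptor tyrosine kinase encoded by Igf1r, which signals through insulin receptor substrates to PI3 kinase and Akt. The binding proteins hold IGFs in the fluid around cells and either keep them from the receptor or deliver them to it, proteases such as Pappa release IGFs from them, and Igf2r takes up IGF2 for breakdown. Endothelial and mesenchymal cells are both known sources of IGF binding proteins.

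A single array per condition leaves no replicate error to test against, so no p-value is given and every difference below compares these 2 samples. Values are signals in the arbitrary linear units of the deposited table, whose lowest value is 1. The log2 difference is dox minus no dox of log2(signal + 16), which understates the change of dim genes, and a gene is called higher or lower when it reaches 2-fold (a log2 difference of 1) by its brightest probe set. A gene passes the signal filter when at least 1 of its 2 signals reaches the median of that array (112 without dox, 127 with dox). Probe sets bind their targets with different strength, so a gap in signal between genes or probe sets is not read as a gap in amount. Signals are ranked only to pick each gene's brightest probe set and to apply the filter. Sums over marker lists are carried mostly by their brightest genes. The only error available is the disagreement between probe sets of 1 gene, which pooled over 9010 genes with 25762 probe sets had an SD of 0.45 on the log2 scale. It measures probe effects, not variation between cultures.

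As checks of the labels, Mesp1 stood at 2433 and 10977 (log2 difference 2.17), while Kdr and Tek, whose products were used for sorting, differed by 0.08 each on the log2 scale. All 10 endothelial markers passed the filter, while the sample titles name the cells by Flk1 and Tie2 only. Of these 1 was 2-fold or more higher, 1 was lower, and their summed signal was 45691 without dox and 44239 with dox. Markers of other cell types differed between the arrays. Of 10 mesenchyme and smooth muscle markers 8 were 2-fold or more higher, with summed signals of 5132 and 36859, and 1 of them, Cnn1, was at the floor without dox. Of 10 cardiomyocyte markers 6 were higher (1974 and 7594), and of 9 measured blood markers 3 were lower (12074 and 8300). In such sorted populations, more cells of a type and more RNA per cell cannot be told apart.

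By the brightest probe sets Igf1, Igfbp4, Igfbp6 and Igfbp7 differed by 0.14 or less on the log2 scale, Igfbp3 and Igfbp2 were higher, Igfbp5 was lower, and Igf1r had probe sets on either side of 0. By the brightest probe sets 1 of the 8 genes, Igfbp3, was 2-fold or more higher with dox and none was 2-fold or more lower, against 4.77% of all 18193 named genes that were higher and 2.04% that were lower. Among 8 genes a single call is no result about the group. By any amount 4 members were higher and 4 lower, and the median log2 difference was 0.016, beside 0.041 over all named genes. Igfbp3 is also the member that lay below the signal filter, while the other 7 passed it. Among the 24 probe sets 2 were 2-fold or more higher and 22 lay within 2-fold, against 4.72% of all named probe sets that were higher and 2.01% that were lower.

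**Figure D1:**
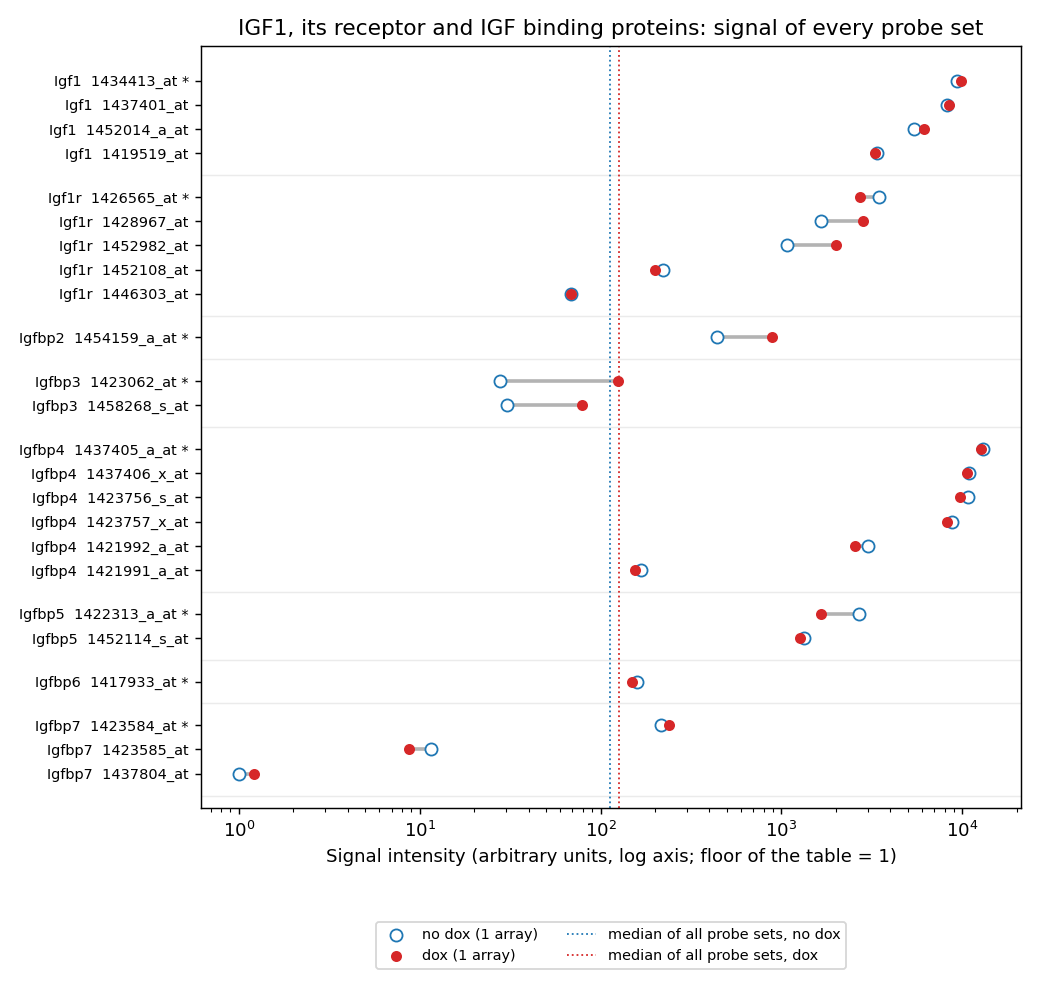
Signal of each of the 24 probe sets on the array without dox (open blue) and the array with dox (filled red), on a log axis in arbitrary units; a star marks each gene's brightest probe set and dotted lines the array medians of 112 and 127. The pairs of Igf1 and Igfbp4 nearly coincide, both Igfbp3 probe sets and the Igfbp2 probe set lie to the right with dox, and the Igf1r probe sets go both ways.

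The ligand was level. Igf1 encodes the growth factor itself. Its brightest probe set (1434413_at) read 9299 without dox and 9817 with dox, a log2 difference of 0.08. The other 3 probe sets of Igf1 gave 8218 and 8397, 5391 and 6157, and 3382 and 3298. Those 4 probe sets ranged from -0.04 to 0.19 and had an SD of 0.096, so the transcript was bright on both arrays and the most different probe set was 1.14-fold higher. When each array was centred on its own median the value of Igf1 was -0.08, so its sign depends on the scaling.

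The receptor gave no single answer. Igf1r encodes the tyrosine kinase through which both IGFs signal. Its brightest probe set (1426565_at) was lower with dox, with signals of 3451 and 2720 (log2 difference -0.34). The next probe set (1428967_at) was higher, with signals of 1664 and 2825 (0.76), and so was 1452982_at, with 1071 and 2002 (0.89). The dimmer 1452108_at had 221 and 199 (-0.14), and 1446303_at had 69.0 and 68.4 (-0.01), the last below the signal filter. None of the 5 reached 2-fold, 2 were higher and 3 lower, and they spanned 1.23 log2 units with an SD of 0.56, wider than the pooled 0.45. By the mean over its probe sets Igf1r was 0.23 higher instead of 0.34 lower on the log2 scale, so these arrays give no direction for the receptor. Which part of the transcript each probe set reads could not be seen without probe sequences.

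Among the binding proteins Igfbp3 and Igfbp2 were higher with dox, Igfbp5 was lower by its brightest probe set, and Igfbp4, Igfbp6 and Igfbp7 differed little. Igfbp3, in blood the main carrier of IGFs, was dim. Its brightest probe set (1423062_at) read 28.0 in untreated cells and 125.7 with dox, 3.22-fold higher (log2 difference 1.69). The other (1458268_s_at) had 30.4 and 79.3, 2.06-fold higher (1.04). Both probe sets thus agreed in direction and both lay below the array medians throughout, where the size of a fold depends on the pseudocount. The log2 difference of Igfbp3 was 2.13 with a pseudocount of 1 and 1.04 with a pseudocount of 64. Among the 6399 named genes below the signal filter, 3.06% were higher by 2-fold or more. That group leaves out every gene that reached the median with dox, so its share of higher genes is limited by the filter itself.

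Igfbp2, a binding protein made widely in the embryo, had 1 probe set (1454159_a_at), with signals of 441 and 888. It was 1.98-fold higher (log2 difference 0.98), just short of the threshold, and reached it (1.01) with a pseudocount of 1. It passed the signal filter on both arrays. The log2 differences of Igfbp2 and Igfbp3 stand beside a median of 2.55 over the 10 mesenchyme and smooth muscle markers and of 1.72 over the 10 cardiomyocyte markers, and the part of such cells in either difference was not tested.

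Igfbp5, which binds extracellular matrix as well as IGFs, lay at 2689 without dox and 1653 with dox by its brightest probe set (1422313_a_at), 1.62-fold lower (log2 difference -0.70). The other (1452114_s_at) had 1330 and 1262, a log2 difference of -0.08. Both were lower, but only the first by more than the pooled probe set SD, and their mean was -0.39. Igfbp5 is the neighbour of Igfbp2 on chromosome 1 in the RefSeq gene order, and the 2 genes stood on opposite sides of 0. Igfbp3 has Igfbp1 as its neighbour on chromosome 11. Igfbp1, a binding protein of liver and decidua, had signals of 1, the floor, and 5.44.

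**Figure D2:**
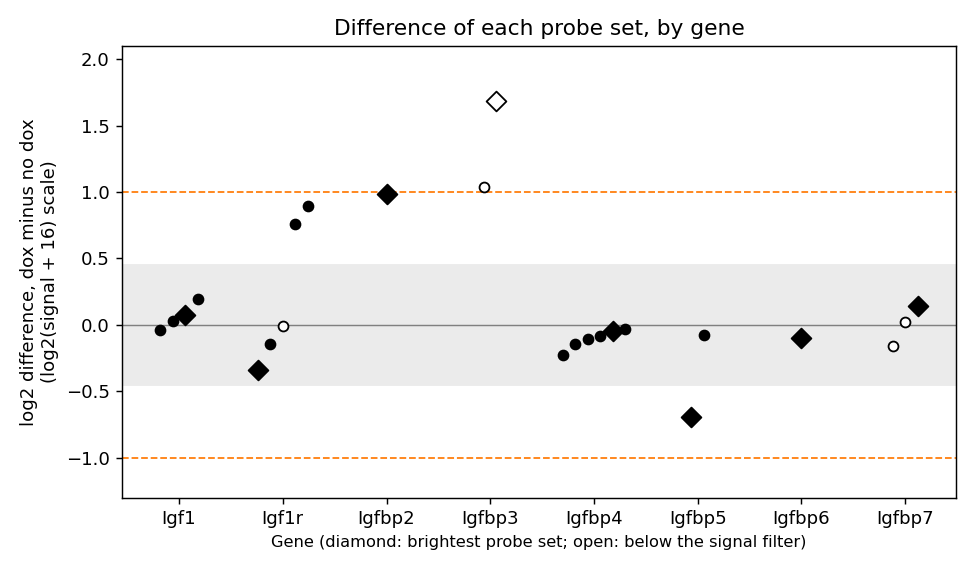
Log2 difference, dox minus no dox, of each probe set on the log2(signal + 16) scale, by gene. Diamonds are the brightest probe sets, open symbols lie below the signal filter, dashed lines mark 2-fold and the grey band the pooled probe set SD of 0.45; Igfbp3 lies above 2-fold with both probe sets (1.69 and 1.04) and Igf1r spans -0.34 to 0.89.

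Igfbp4, an inhibitor of IGF action that Pappa cleaves, was the most fully measured member. Its brightest probe set (1437405_a_at) read 13054 and 12641, a log2 difference of -0.05. All 6 of its probe sets were slightly lower, from -0.23 to -0.03 with an SD of 0.071. Igfbp6, which prefers IGF2, had 160 and 148 in its only probe set (-0.10). Igfbp7, a low-affinity binding protein of vascular basement membrane, had 215 and 239 in its brightest probe set (0.14). That value was -0.01 after quantile normalization and -0.02 with centred arrays, so Igfbp7 has no settled sign. Its other probe sets were very dim, at 11.6 and 8.77, and at 1 and 1.22.

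The stretches before the start sites of the binding protein genes that stood farthest from 0 are shown, since these are the members a reader would compare first. They are the 250 bases before the start in RefSeq (GRCm38.p6), 5′ to 3′ on the gene's strand, with each CANNTG in capitals. CANNTG is the E-box, the core bound by basic helix-loop-helix factors, the class to which Mesp1 belongs. It reads the same on both strands. Igfbp2 has a pair of annotated starts.
Igfbp3, chr11:7213924-7214173, minus strand: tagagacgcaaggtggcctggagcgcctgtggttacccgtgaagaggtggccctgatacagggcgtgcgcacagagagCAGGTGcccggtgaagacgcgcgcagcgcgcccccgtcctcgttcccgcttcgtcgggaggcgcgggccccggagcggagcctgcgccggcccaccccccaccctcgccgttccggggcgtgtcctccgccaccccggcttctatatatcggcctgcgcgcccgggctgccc
Igfbp2, first start, chr1:72824230-72824479, plus strand: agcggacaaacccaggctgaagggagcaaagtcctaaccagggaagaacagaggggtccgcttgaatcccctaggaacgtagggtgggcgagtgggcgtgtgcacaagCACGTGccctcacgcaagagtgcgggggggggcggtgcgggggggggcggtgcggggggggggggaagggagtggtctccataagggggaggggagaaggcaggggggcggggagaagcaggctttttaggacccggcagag
Igfbp2, second start, chr1:72825137-72825386, plus strand: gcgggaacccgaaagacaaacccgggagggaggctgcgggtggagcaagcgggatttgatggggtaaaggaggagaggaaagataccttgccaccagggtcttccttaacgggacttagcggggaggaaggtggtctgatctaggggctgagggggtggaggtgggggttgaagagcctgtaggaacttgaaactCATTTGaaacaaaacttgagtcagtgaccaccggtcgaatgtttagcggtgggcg
Igfbp5, chr1:72874866-72875115, minus strand: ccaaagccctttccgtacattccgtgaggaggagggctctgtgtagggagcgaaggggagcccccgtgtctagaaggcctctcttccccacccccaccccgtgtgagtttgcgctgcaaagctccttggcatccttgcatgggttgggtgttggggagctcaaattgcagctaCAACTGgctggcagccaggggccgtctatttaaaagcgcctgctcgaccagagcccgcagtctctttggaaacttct

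Each of these 4 stretches held 1 E-box. It was CAGGTG with its first base 172 bases before the start of Igfbp3, CACGTG at 142 and CATTTG at 55 bases before the starts of Igfbp2, and CAACTG at 77 bases before that of Igfbp5, so the genes that were higher and the gene that was lower did not differ in holding one. All 8 members matched a promoter in RefSeq, with 9 starts, and 7 of the 9 stretches held an E-box, those of Igf1r and Igfbp7 being without one. Of all 32851 RefSeq promoters, 66.2% held at least 1. TATAAA on either strand was in 2 of the 9, those of Igfbp4 at 28 and Igfbp6 at 148 bases before the start, against 12.4% of all. No E-box overlapped it. Igfbp4 was level and bright on both arrays. These matches describe letters only.

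The rest of the pathway was read from a list of 55 genes that includes the members. Of these 50 were measured, 5 were 2-fold or more higher and 1 was lower, and the median log2 difference was 0.17. Without the 8 members 4 of 42 measured genes were higher (Igf2r, Irs1, Irs2 and Htra1), 1 was lower (Inpp5d) and 37 lay within 2-fold, beside the same 4.77% and 2.04% of all named genes. With the signal filter the counts for the list of 55 were 3 higher and 1 lower among 38 genes, where 5.69% and 2.06% of all genes that passed it were higher and lower.

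Beside the level ligand Igf1, Igf2, the imprinted embryonic growth factor, was level by its brightest probe set, with signals of 15847 and 15778 (log2 difference -0.01). Its other probe set was lower with dox, with 1882 and 1485 (-0.34), a difference smaller than the pooled probe set SD. The receptors differed from each other. Igf2r, the imprinted mannose 6-phosphate receptor that clears IGF2, was 6.69-fold higher with dox in 1424112_at (1493 to 10080, log2 difference 2.74) and 2.18-fold higher in 1424111_at (1536 to 3363, 1.12). Both were past 2-fold, although they differed by more than the pooled probe set SD. Insr, the insulin receptor, had 1397 and 1702 (0.28) in its brightest probe set.

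Among the receptor substrates Irs1 differed about as much as Igf2r when both were read by their brightest probe sets. Which of them stood farther from 0 then depended on the pseudocount (2.60 for Irs1 against 2.70 for Igf2r with 64). By the mean over probe sets Igf2r was at 1.93, below the 2.85 of Irs1. Irs1, the docking protein that links Igf1r to PI3 kinase, was 7.20-fold higher in its only probe set, with signals of 199 and 1532 (log2 difference 2.85). Irs2, its paralogue, was dim and had 43.1 and 111.5, 2.16-fold higher (1.11). The call for Irs2 was lost with a pseudocount of 64 (0.71), with quantile normalization (0.97) and with centred arrays (0.95), and it did not reach the signal filter. The other 8 substrates and adaptors stayed within 2-fold when read by their brightest probe sets.

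Htra1, a secreted protease that cleaves Igfbp5 and other matrix proteins, was 2.23-fold higher (117 to 279, log2 difference 1.15), and 1.32 by its other probe set. By their brightest probe sets Pappa, Pappa2 and their inhibitors Stc1 and Stc2 lay within 2-fold, from -0.31 to 0.41, and all but Stc2 were below the signal filter. For Stc2 the probe sets disagreed widely. Its brightest had 563 and 590 (0.07), but 1449484_at had 634 and 67.3 (-2.96) and 1419503_at had 144 and 34.55 (-1.66), so these arrays give no settled value for it. Another probe set was past 2-fold in Gab1 (-1.01), Pik3r1 (1.01) and Igfbpl1 (1.14) too, all counted as within 2-fold. Of 17 measured genes of the PI3 kinase and Akt arm 16 stayed within 2-fold when read by their brightest probe sets. By any amount 14 of the 17 were higher, with a median of 0.23, against 54.9% of all named genes; with centred arrays 10 were higher, with a median of 0.07, against 36.6%. The gene past 2-fold was Inpp5d, a lipid phosphatase of blood cells, 2.12-fold lower by its brightest probe set (875 to 404, log2 difference -1.08) and -0.30 by the other. It stands beside a median of -0.78 over the 9 measured blood markers, and the part of blood cells in it was not tested. The same holds for Igf2r, Irs1 and Htra1 beside the mesenchyme markers, which were higher in the same sample.

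**Figure D3:**
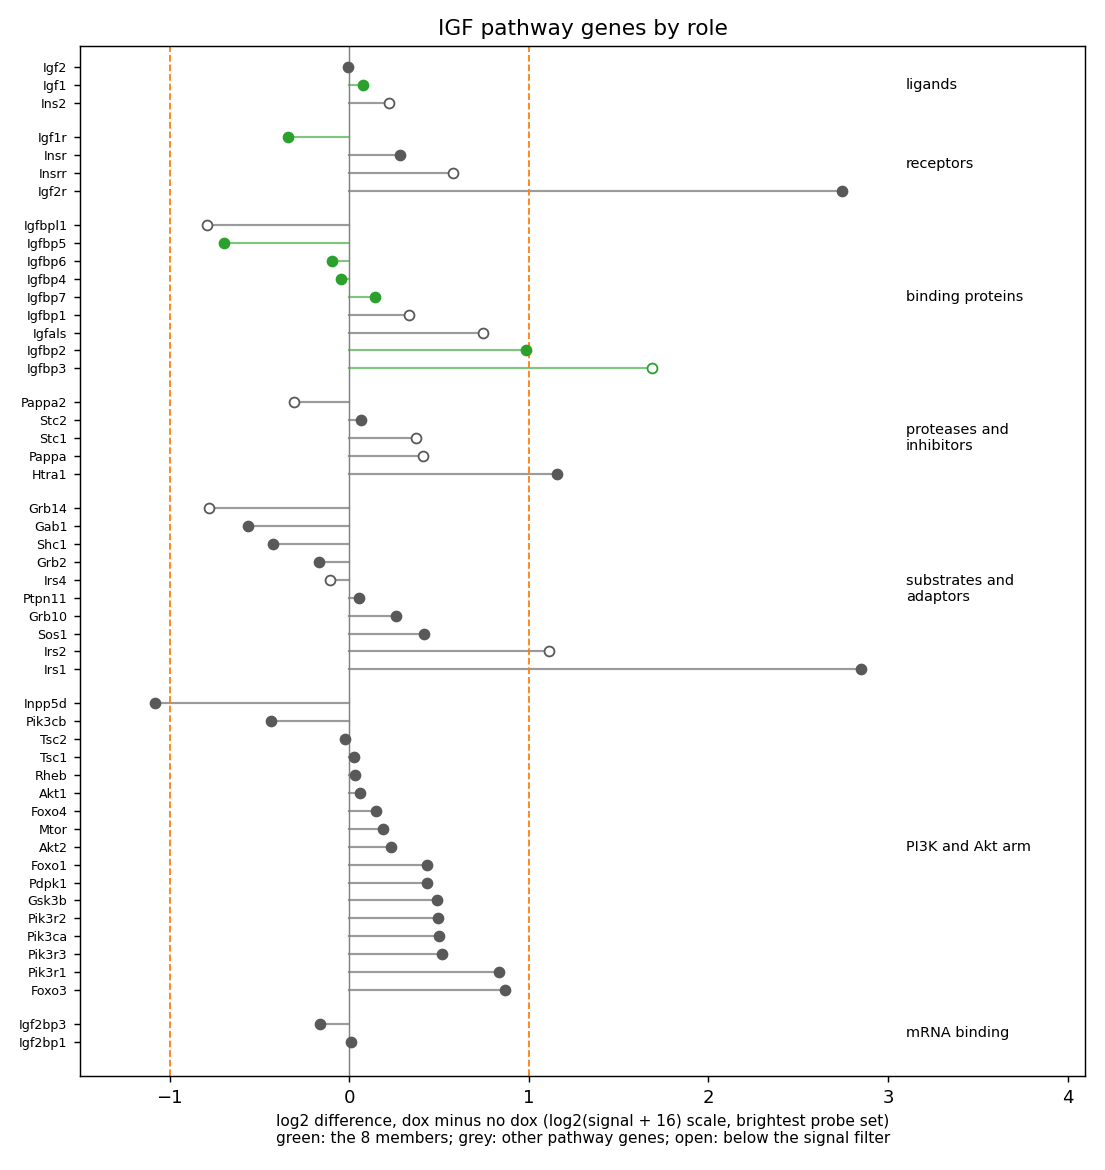
Log2 difference, dox minus no dox, of the 50 measured IGF pathway genes by their brightest probe sets, grouped by role; members are green, open symbols lie below the signal filter and dashed lines mark 2-fold. Irs1 (2.85) and Igf2r (2.74) lie to the right of Igfbp3 (1.69), and Inpp5d (-1.08) is alone beyond 2-fold on the left.

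Of all genes past the signal filter, those with a log2 difference nearest to the 1.69 of Igfbp3 were Lypd6 (84.8 to 308), St8sia2 (103 to 366) and Arg1 (31.6 to 137), each within 0.005 log2 units. Each of these genes passed the filter only by its signal with dox, and Igfbp3 itself did not pass it. The likeness rests on 1 difference between 2 arrays.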

How the data were processed

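The deposited table gives 1 signal intensity per probe set for 45037 probe sets on 2 arrays, on a linear scale; the authors' summary and scaling steps are not given in the sources used here. Arrays were labelled from 100 ng of total RNA, per the labels' protocols. Probe sets were named through the platform annotation: 34945 had 1 symbol, 932 had several and 9160 had none, and only the first kind was used. Signals were taken as log2(signal + 16) and each gene was represented by the probe set with the highest mean signal (Python 3.11.15, pandas 2.3.3, numpy 2.4.6). The procedure was tested on simulated data with changes placed only in genes brighter than Igfbp3, so that test does not cover calls on dim genes. Alternatives were pseudocounts of 1 and 64, quantile normalization, centring, the mean over probe sets, removal of probe sets ending in _s_at or _x_at, and filters on signal. Named were all members, the pathway genes past 2-fold, Igf2, Igf2r, Insr, Irs1 and Irs2, the 3 genes nearest to the most different member, and Mesp1, Kdr and Tek; any other gene was named after its values were seen. Members and lists were chosen with earlier results of these data known. No test was possible with 1 array per condition. Detection calls, control probe sets and scanner files were not used here, and the number of arrays limits the precision.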

Additional observations from a re-analysis of the deposited data

How the results depend on the processing

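The count of members 2-fold or more higher was 1 in the main setting and 2 with a pseudocount of 1, which added Igfbp2. It was 0 with a signal filter on the brighter array and 0 with a filter on the mean of both, since both leave Igfbp3 out. The pathway list of 55 genes had 5 higher and 1 lower in the main setting. With a pseudocount of 1 it had 8 higher and 2 lower, and the count of higher genes was 3 with a pseudocount of 64, 3 with centred arrays and 3 with either filter. Over the 8 alternatives 62 values of single members were computed, of which 58 kept their sign and 61 their side of 2-fold. Part of this agreement was fixed in advance. Both filters only drop genes, so they could not change a value that stayed. No member's brightest probe set ends in _s_at or _x_at, so removing those changed no member either. Igfbp2 and Igfbp6 have 1 probe set each, so their mean over probe sets is the main value. These counts are therefore no measure of stability. The sign changed for Igf1 and Igfbp7 with centred arrays, for Igfbp7 with quantile normalization and for Igf1r with the mean over probe sets. Centring brought the median over all genes from 0.04 to -0.12 on the log2 scale, and all values move by that shift. Without detection calls, dim signals such as those of Igfbp3 have no known background. No paired analysis was possible because there is 1 array per condition.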

Other observations

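Some transcripts that share a locus with the ligands were looked up after the other values were seen. Igf2os, an antisense transcript at Igf2, had signals of 380 without dox and 638 with dox, a log2 difference of 0.73. Igf2 itself had -0.01 in its brightest probe set and -0.34 in the other. Igf1os, at Igf1, was dim, with 9.31 and 33.0 (0.95). Igf2os and Igf1os have 1 probe set each.

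Binding protein relatives outside the members were dim on both arrays. Igfals, the acid-labile subunit that holds Igfbp3 and IGFs in serum, had 13.3 and 33.2 (log2 difference 0.75), and Igfbpl1 had 78.2 and 38.3 (-0.80) in its brightest probe set but 1.23 and 22.0 (1.14) in its other, so its direction is not settled. Of the mRNA-binding proteins named after Igf2, Igf2bp1 and Igf2bp3 lay within 2-fold in every probe set, and Igf2bp2 was not measured. The 4 probe sets of Igf2bp1 ranged from -0.57 to 0.01 and the 6 of Igf2bp3 from -0.32 to 0.0045, with the brightest at 0.01 and -0.16.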
